A study of Homo sapiens with 4 samples.

Results

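Human mitochondrial DNA encodes 7 subunits of respiratory complex I, in the genes MT-ND1, MT-ND2, MT-ND3, MT-ND4L, MT-ND4, MT-ND5 and MT-ND6. These 7 genes were chosen by name, and their rows were found in 2 lists of N4-acetylcytidine (ac4C) peaks by Ensembl identifier and position. In each list, 6 of the 7 genes had a peak, and MT-ND4L had none. They held 7 of the 6403 peaks listed for the control cells and 8 of the 6417 peaks listed for the knockdown cells.

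The cells were FaDu, an epithelial line grown from a squamous carcinoma of the human hypopharynx. They carried either a control short hairpin RNA (shNC) or a short hairpin RNA against NAT10 (shNAT10), the acetyltransferase known as the writer of ac4C. The lines were made stable by lentiviral transduction, and which of the study's hairpins against NAT10 these libraries used is not given in the sources used here. In acRIP-seq, RNA was broken into short fragments, and an antibody against ac4C captured those that bear it (IP). The paper's methods name total RNA as the starting material, whereas its results name mRNA. The captured fragments were sequenced beside RNA that had not been put through the capture (input). For either line a single IP and a single input were sequenced, which makes 4 libraries, so no value has a replicate. No test between the conditions that takes in the spread between cultures was possible, and all differences below are descriptions of these libraries. A peak is an interval in which IP exceeded input, and its fold enrichment is the linear ratio of IP to input within 1 condition. The lists give no read counts, so the depth is unknown, and how the IP and input libraries were scaled to each other is not given in the sources used here. In such bulk libraries, fewer cells with an acetylated transcript and less ac4C per transcript cannot be told apart. The lists hold no level of RNA, so the knockdown of NAT10 itself could not be checked in them. Of 7 epithelial genes examined, KRT18, KRT19 and TP63 (the last matched by position) had a peak in both lists. The other 4, KRT5, KRT14, KRT17 and KRT6A, had none in either. Presence or absence of a peak says nothing of expression, so the labelled cell type could not be checked in this way.

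Complex I (NADH:ubiquinone oxidoreductase) takes electrons from NADH, passes them to ubiquinone and pumps protons across the inner mitochondrial membrane. The mitochondrially encoded subunits form the core of the membrane arm, where protons are pumped, while the remaining subunits are encoded in the nucleus and imported. Both strands of the mitochondrial genome are transcribed as long precursors, which are cut mainly at tRNA genes, so that most messenger RNAs begin and end at or close to the ends of their open reading frame. MT-ND4L and MT-ND4 share 1 messenger RNA, and MT-ND6 is the only complex I gene whose messenger sense lies on the strand opposite to the other 6. No sequence of these genes is printed, because none was in the files used here.

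Where the peaks lay differed from gene to gene. In the map of peaks along the genes, those of MT-ND1, MT-ND3 and MT-ND4 ran to the last base of the gene in both conditions, whereas the strongest peak of MT-ND5 and the single peak of MT-ND6 lay at the 5′ end. Positions are those of the mitochondrial genome (MT) in GRCh38, counted from 1, with gene limits from RefSeq for GRCh38.p14.

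**Figure D1:**
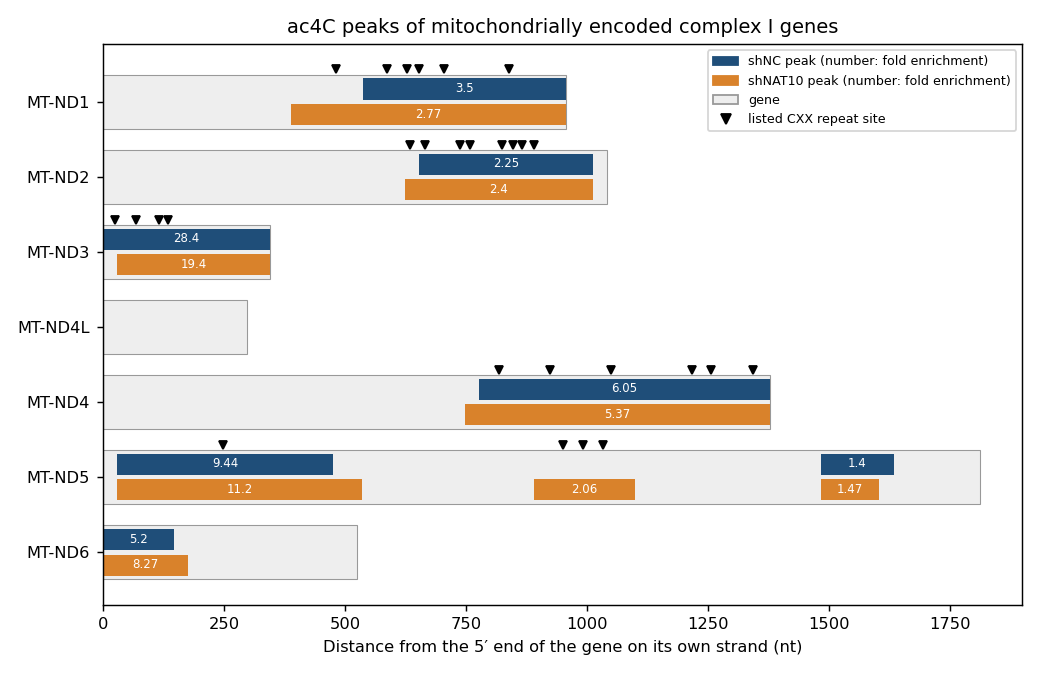
Position of each ac4C peak along the 7 genes, in nt from the 5′ end of the gene on its own strand, with shNC above shNAT10 in each grey gene bar, the fold enrichment printed on the peak and triangles at listed CXX repeat sites. Peaks of MT-ND1, MT-ND3 and MT-ND4 reach the 3′ end of the gene, MT-ND5 has 2 peaks in shNC and 3 in shNAT10, and MT-ND4L has none.

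MT-ND1, a subunit at the joint between the membrane arm and the peripheral arm that contributes to the ubiquinone site, spans positions 3307 to 4262 on the plus strand (956 nt). Its shNC peak covered positions 3844 to 4262, and its shNAT10 peak began 149 nt earlier, at 3695, and ended at the same base. The peak therefore took up 43.8% of the gene in shNC and 59.4% in shNAT10. Its fold enrichment was 3.5 in shNC and 2.77 in shNAT10.

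MT-ND2, a proton-pumping subunit related to bacterial antiporters, spans positions 4470 to 5511 on the plus strand (1042 nt). Its peak covered positions 5124 to 5481 in shNC and 5095 to 5481 in shNAT10, so both ended 30 nt before the end of the gene. The fold enrichment was 2.25 in shNC and 2.4 in shNAT10. In each condition MT-ND2 had the lowest fold enrichment among the members with a single peak.

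MT-ND3, a small subunit whose loop lies near the ubiquinone cavity, spans positions 10059 to 10404 on the plus strand (346 nt). In shNC 1 peak covered the whole gene, and in shNAT10 the peak covered positions 10088 to 10404, or 91.6% of it. The fold enrichment was 28.4 in shNC and 19.4 in shNAT10, the highest of all members in both conditions.

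MT-ND4L, another small membrane subunit, spans positions 10470 to 10766 on the plus strand (297 nt) and overlaps MT-ND4 by 7 nt. It had no peak of its own in either list. The nearest peak on the same messenger RNA was that of MT-ND4, which began 771 nt beyond the end of MT-ND4L in shNC and 741 nt beyond it in shNAT10. Absence from a list does not show absence of ac4C, because the depth over this gene is unknown.

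MT-ND4, another antiporter-like proton pump, spans positions 10760 to 12137 on the plus strand (1378 nt). Its peak covered positions 11538 to 12137 in shNC and 11508 to 12137 in shNAT10. At 600 nt and 630 nt these were the longest member peaks of their lists. The fold enrichment was 6.05 in shNC and 5.37 in shNAT10.

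MT-ND5, the antiporter-like subunit at the far end of the membrane arm, spans positions 12337 to 14148 on the plus strand (1812 nt) and was the only member with more than 1 peak. The first peak, 30 nt from the 5′ end, covered positions 12367 to 12812 in shNC and 12367 to 12871 in shNAT10, with fold enrichments of 9.44 and 11.2. The last peak, 1484 nt from the 5′ end, covered positions 13821 to 13970 in shNC and 13821 to 13940 in shNAT10, with fold enrichments of 1.4 and 1.47. Within this 1 gene, the first peak was thus 6.74 times as enriched as the last in shNC and 7.62 times in shNAT10. A peak between them, at positions 13228 to 13435 with a fold enrichment of 2.06, was listed in shNAT10 and not in shNC. Peaks covered 32.9% of MT-ND5 in shNC and 46.0% in shNAT10.

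MT-ND6, a membrane subunit close to the joint of the arms, spans positions 14149 to 14673 on the minus strand (525 nt), so its 5′ end is at 14673. Its peak covered positions 14527 to 14673 in shNC and 14498 to 14673 in shNAT10, the first 28% and 33.5% of the gene. The fold enrichment was 5.2 in shNC and 8.27 in shNAT10. The next peak on the plus strand, the last one of MT-ND5, ended 556 nt away in shNC, so the peaks of these neighbouring genes did not overlap. Whether reads were counted by strand is not given in the sources used here, and without strand, reads of MT-ND6 and of RNA from the opposite strand at these positions cannot be told apart.

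The other mitochondrial genes give the frame for these positions. All 6 shNC peaks of the other protein-coding genes and 6 of their 7 shNAT10 peaks ran to the last base of the gene, against 3 of 7 and 3 of 8 member peaks. The exceptions among the members were MT-ND2, MT-ND6 and all peaks of MT-ND5. None of the 22 mitochondrial tRNA genes was overlapped by a peak over 30 nt or more. However, no mitochondrial peak was listed past the limits of its own gene. Whether peaks were called only within gene limits is not given in the sources used here. If so, a peak of a neighbouring gene could not reach a tRNA gene, and the last base of a gene is only the edge of the searched interval. The tRNA count therefore says nothing of ac4C beyond those limits.

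Next, the level of enrichment was examined within each list, where no scaling between conditions is needed. All members but 1 lay below the median fold enrichment of their list, which was 12.4 in both conditions. MT-ND3 was above it in both. The order from high to low was MT-ND3, the first peak of MT-ND5, MT-ND4, MT-ND6, MT-ND1, MT-ND2 and the last peak of MT-ND5 in shNC. In shNAT10, MT-ND6 stood ahead of MT-ND4 and the middle peak of MT-ND5 came before its last one, while the rest of the order was the same. Without replicates it is unknown which neighbours in this order differ beyond the spread between libraries. Spearman's rho of the fold enrichments between conditions was 0.96 over 7 paired peaks, given as a description, since the peaks share libraries and some share a transcript.

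Member peaks spanned a 20.3-fold range of enrichment in shNC and a 13.2-fold range in shNAT10. Their median was 5.2 in shNC and 4.07 in shNAT10. The 9 peaks of the other mitochondrial genes in shNC ran from 4.04 to 34.7 with a median of 10.4, and the 10 in shNAT10 ran from 2.05 to 32.9 with a median of 9.3. At the lower end of the lists the members were frequent. Peaks with a fold enrichment under 2.5 made up 1.7% of the shNC list (109 peaks) and 1.84% of the shNAT10 list (118 peaks), and they included 2 of the 7 and 3 of the 8 member peaks. The last peak of MT-ND5 had only 2 peaks below it in the whole shNC list and 4 in the shNAT10 list, whose lowest values were 1.35 and 1.17. In contrast, MT-ND3 exceeded 80.3% of shNC peaks and 68.0% of shNAT10 peaks.

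The p-values of the peaks, given by the authors as log10 values, placed the members differently. The median log10 p was -10.1 in the shNC list and -9.29 in the shNAT10 list. A log10 p of -1000 or lower was listed for 191 shNC peaks (2.98%) and 165 shNAT10 peaks (2.57%), among them 5 of the 7 and 6 of the 8 member peaks. MT-ND4 had the smallest p of the members, with a log10 p of -7930 in shNC and -6770 in shNAT10, which ranked 51 and 28 in the lists. MT-ND2 combined a fold enrichment of 2.25 with a log10 p of -1370 in shNC, and 2.4 with -1950 in shNAT10. The weakest calls were the last peak of MT-ND5, at -28.7 and -48.5, and its middle peak in shNAT10, at -115. Of MT-ND6 the log10 p was -760 in shNC and -1670 in shNAT10. The other mitochondrial genes shared this pattern, since 11 of all 16 mitochondrial peaks in shNC and 12 of 18 in shNAT10 had a log10 p of -1000 or lower. These p-values come from reads within 1 IP and 1 input library and shrink as a transcript is read more deeply. They say nothing of the spread between cultures, and the part of read depth in them was not tested.

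**Figure D2:**
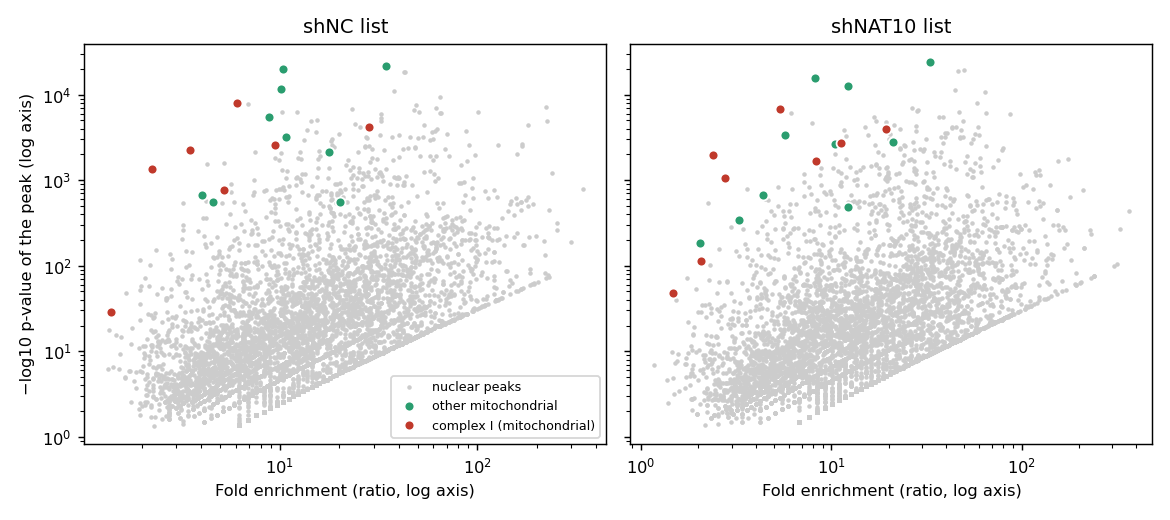
Fold enrichment (log axis) against −log10 p (log axis) of every peak with a finite p in the shNC and shNAT10 lists, with nuclear peaks in grey, other mitochondrial peaks in green and complex I members in red. Most members lie at the upper left, with low fold enrichment and very small p, except MT-ND3 (28.4 and 19.4) and the last peak of MT-ND5 (log10 p of -28.7 and -48.5), and 43 shNC and 18 shNAT10 nuclear peaks whose log10 p was listed as minus infinity are not drawn.

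Listed peaks had a median length of 210 nt for shNC and 209 nt for shNAT10, and 5 of the 7 and 5 of the 8 member peaks were longer. Of the other mitochondrial peaks, 8 of 9 in shNC and 9 of 10 in shNAT10 were longer. The peak of MT-ND4 was longer than 97.8% of the shNC list and 98.3% of the shNAT10 list. The short ones were MT-ND6, at 147 nt in shNC and 176 nt in shNAT10, and the last peak of MT-ND5, at 150 nt and 120 nt. The middle peak of MT-ND5, at 208 nt, was close to the median.

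To compare the conditions, each shNC peak was paired with the shNAT10 peak that it overlapped most on the same strand, where each was the best match of the other, and the log2 ratio of fold enrichment was taken, shNAT10 over shNC. All 7 member peaks of shNC found a partner, which covered between 73.8% and 95.2% of the longer peak. Across the lists, 48.3% of shNC peaks had no overlapping peak in shNAT10, against 0 of the 7 member peaks. In the other direction, 48.5% of shNAT10 peaks had no overlapping peak in shNC, and of the 8 member peaks it was 1, the middle peak of MT-ND5. The other mitochondrial peaks, 9 in shNC and 10 in shNAT10, all overlapped a peak of the other list, so overlap was not particular to the members. Both list shares take in all peaks, most of them called more weakly than the members. No such share was computed for strongly called peaks alone.

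None of the 7 paired member peaks differed 2-fold between the conditions by the ratio used here. Every member with a peak also has a row in the authors' table of differential peaks, though the last peak of MT-ND5 does not. By its name, that table holds peaks the authors called significant. The authors' own values for that comparison were not used. By the ratio used here, 46.5% of all 3132 paired peaks differed 2-fold (1457 pairs). Among the 586 nuclear pairs with a log10 p of -100 or lower in both lists, it was 27.5% (161 pairs). That subset was chosen after the data had been seen, because 6 of the 7 and 7 of the 8 member peaks also reached this limit. It is not matched to the members in strength, since 5 of the 7 and 6 of the 8 had a log10 p of -1000 or lower. Of the other 9 mitochondrial pairs 0 differed 2-fold as well. The median absolute log2 ratio was 0.25 over the member pairs, 0.92 over all pairs and 0.58 over the strongly called nuclear pairs. These are counts over peaks of 1 pair of libraries each, and no test of the members against the background was made.

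The members did not share 1 direction. In shNAT10 4 pairs had the higher value and 3 the lower, and the median log2 ratio was 0.07, against -0.08 over all pairs and -0.34 over the other mitochondrial pairs, of which 2 of 9 were higher. MT-ND6, the gene of the opposite strand, had the largest ratio, 1.59 (log2 ratio 0.67), from 5.2 in shNC to 8.27 in shNAT10. Of all pairs 39.4% had a smaller absolute ratio than MT-ND6. Next came the first peak of MT-ND5 with a log2 ratio of 0.25, MT-ND2 with 0.09 and the last peak of MT-ND5 with 0.07.

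On the lower side stood MT-ND3 with a log2 ratio of -0.55, MT-ND1 with -0.34 and MT-ND4 with -0.17. The value of MT-ND3 corresponds to 0.683 times the shNC enrichment, and 32.7% of all pairs had a smaller absolute ratio. The other mitochondrial pairs ran from -0.98 for MT-ATP8, a small subunit of ATP synthase, to 0.26 for MT-CO1, the catalytic subunit of cytochrome c oxidase. The zero of this scale is not fixed, since the scaling of the libraries is unknown. Set against the median of the other mitochondrial pairs, MT-ND4 moved from -0.17 to 0.17, MT-ND1 to 0.00 and MT-ND6 to 1.01, just past 2-fold, while set against the median of all pairs no member changed sign. The directions of MT-ND1 and MT-ND4 therefore depended on the reference chosen.

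Some limits of the peaks shifted between the lists while others did not. The 3′ ends of the MT-ND1, MT-ND2, MT-ND3 and MT-ND4 peaks were the same base in both conditions. Except in MT-ND2, that base was the last of the gene, past which no peak was listed. On the 5′ side the shNAT10 peak began 149 nt earlier in MT-ND1, 29 nt earlier in MT-ND2 and 30 nt earlier in MT-ND4, but 29 nt later in MT-ND3. Both MT-ND5 pairs began at the same base, and the shNAT10 peak ended 59 nt later for the first and 30 nt earlier for the last. For MT-ND6 the 5′ end was shared, and the shNAT10 peak ran 29 nt further into the gene. All these shifts were close to a multiple of 30 nt. Whether peak limits were set in steps of that size is not given in the sources used here, so shifts of 29 or 30 nt may be a single step. Together the member peaks covered 2466 nt in the control and 2911 nt in the knockdown.

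The deposited table of differential peaks also lists, for each of its rows, where the C-rich repeat CXXCXXCXXCXX occurs, which is 4 triplets of a C and any 2 bases. Its rows for the members cover 7 intervals, 1 each in MT-ND1, MT-ND2, MT-ND3, MT-ND4 and MT-ND6 and 2 in MT-ND5, all classed as coding sequence. The intervals do not always match the listed peaks. For the middle peak of MT-ND5 the row runs from 13257 to 13406, which is narrower than the peak. These rows held 28 sites over 2703 nt, or 1.04 per 100 nt. The rows of the other mitochondrial genes held 0.521 per 100 nt (22 sites), and the rows of nuclear genes held 0.487 per 100 nt of exon (3970 sites in 2793 rows). Unlike the member rows, the other mitochondrial rows include ribosomal RNA, with 0.372 in MT-RNR1 and 0.272 in MT-RNR2. Their protein-coding rows ran from 0.321 in MT-CO1 to 0.966 in MT-ATP8. These are counts of letters and not of acetylated cytidines. They depend on base composition, which differs between the mitochondrial strands and the nuclear genome.

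The members differed widely in these sites. MT-ND2 had 8 (2.07 per 100 nt), MT-ND1 had 6 (1.06), MT-ND4 had 6 (1.0) and MT-ND3 had 4 (1.16). In MT-ND5 there was 1 site in the row of the first peak (0.21 per 100 nt) and 3 in the row of the middle peak (2.0). MT-ND6 had 0 sites in its 176 nt, although its fold enrichment exceeded those of MT-ND1 and MT-ND2 in both conditions. The density of sites thus did not run with fold enrichment among the members, since MT-ND2, which was densest, was among the least enriched, and the first peak of MT-ND5 had 1 site and the second highest enrichment. No match says only that these letters are not listed in this window.

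Most of the sites in the members kept 1 phase relative to the reading frame. The first C of 24 of the 28 sites (85.7%) fell on codon position 3, of 3 sites on position 1 and of 1 site on position 2. All 6 sites of MT-ND1, all 4 of MT-ND5, 5 of 6 in MT-ND4, 6 of 8 in MT-ND2 and 3 of 4 in MT-ND3 were in this phase, in which the repeat consists of consecutive codons that end in C. In the other mitochondrial protein-coding genes it was 11 of 17 sites (64.7%). Sites in 1 gene can lie close together and are not independent, so no test was made.

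The shift of peak limits moved some of these sites in or out of a listed peak. The sites at 13287, 13329 and 13371 in MT-ND5 lay in the middle peak, which was listed in shNAT10 only. The site at 3789 in MT-ND1 and that at 5104 in MT-ND2 lay in the shNAT10 peak alone, because it began earlier. Conversely, the first site of MT-ND3, at 10085, lay in the shNC peak alone. In MT-ND2 and MT-ND3 the limit had shifted by only 29 nt, which may be a single step of the peak limits. The remaining 22 sites were inside a peak in both conditions.

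The human nuclear genome holds many copies of mitochondrial DNA, whose reads can be exchanged with those of the true genes. RefSeq names 255 nuclear pseudogenes of the 7 genes, from 25 for MT-ND3 to 45 for MT-ND5, and 37 for MT-ND1, 41 for MT-ND2, 31 for MT-ND4L, 40 for MT-ND4 and 36 for MT-ND6. In neither list did a peak overlap any of them. How reads that fit several places were counted is not given in the sources used here, so the enrichments of the members remain uncertain to that extent.

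The remaining subunits of complex I, encoded in the nucleus, were examined in the same lists, by identifier where the files pair it with a symbol and otherwise by position without regard to strand. The core nuclear subunits carry the flavin, the iron-sulfur clusters and part of the ubiquinone site. Of their 5 paired peaks 2 differed 2-fold, both lower in shNAT10: a peak of NDUFV1, the subunit that binds NADH, had a fold enrichment of 9.19 in shNAT10 and a log2 ratio of -1.71, and a peak of NDUFS3 had 18.8 and 5.84. A peak of NDUFV2 had the highest log2 ratio of this list, 0.50, from 13.5 in shNC to 19.1 in shNAT10. The median log2 ratio of the core list was 0.23.

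Among 30 accessory subunits, which surround the core and serve its assembly and stability, 25 had a peak in each condition and 21 in both. Of their 24 paired peaks 15 differed 2-fold, 7 higher and 8 lower in shNAT10, with a median log2 ratio of 0.01. The highest log2 ratios were 2.98 for a peak of NDUFB9, 2.85 for NDUFA2, and after these came NDUFB4, with a fold enrichment of 4.0 in shNC and 11.3 in shNAT10. The other paired peak of NDUFB9 went the other way, from 180.0 in shNC to 91.0 in shNAT10 (log2 ratio -0.98). The lowest log2 ratio was -3.60 for a peak of NDUFA13, a gene whose other 2 paired peaks had log2 ratios of 0.05 and -0.02. Peaks of nuclear complex I genes past 2-fold were thus 17 of 29, while among the mitochondrially encoded members it was 0 of 7. Only 6 of the 29 nuclear pairs had a log10 p of -100 or lower in both lists, and of these 1 differed 2-fold. The shares over all pairs and over strongly called nuclear pairs, 46.5% and 27.5%, are the background for both counts.

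Of 16 assembly factors, which build complex I and are absent from the finished enzyme, 11 had a peak in shNC and 5 in shNAT10. FOXRED1, NDUFAF2, NDUFAF3, NDUFAF4, NDUFAF5 and NUBPL had one in shNC only, 0 had one in shNAT10 only, and 5 had none. Over the whole lists 48.3% of shNC peaks and 48.5% of shNAT10 peaks had no overlapping peak in the other. Those shares count peaks, whereas 6 of 11 in shNC and 0 of 5 in shNAT10 count genes. A gene counts as having a peak in both even where its peaks were not paired, as in NDUFAF7. The gene counts thus have no matching background here, and they were not tested. Of the 4 paired peaks 1 differed 2-fold, that of NDUFAF8, with 5.9 in shNC and 43.3 in shNAT10. A list of 22 factors, mostly ones that make, cut, stabilise or degrade mitochondrial RNA, also held POLG and TWNK, which act on mitochondrial DNA. Of these 22, 9 had a peak in shNC, 10 in shNAT10 and 7 in both. LRPPRC, which stabilises mitochondrial messenger RNAs, and TWNK, the mitochondrial DNA helicase, had one in shNC only, and FASTKD2, PRORP and TBRG4 in shNAT10 only. Of their 6 paired peaks 2 differed 2-fold, ELAC2, which cuts the 3′ end of tRNAs, with a log2 ratio of 3.15, and SUPV3L1, an RNA helicase of mitochondrial RNA decay, with -2.82. For both lists these counts of 2-fold pairs stand against the same 46.5% of all pairs and rest on few pairs.

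Finally, the nuclear peaks nearest to each member by log2 fold enrichment in both conditions were named, 3 for each member peak. Nearest to MT-ND3 was a peak of RPL13, with 28.3 in shNC and 18.8 in shNAT10, and nearest to MT-ND6 one of JUNB, with 5.27 and 8.03. Nearest to MT-ND1 was a peak of EIF3B, with 3.51 and 2.69, and to MT-ND2 one of RPL17, with 2.09 and 2.55. The last peak of MT-ND5 had no close neighbour, and the nearest, of PTMA, had 1.66 and 1.53. For MT-ND4 and the first peak of MT-ND5 the nearest peak belonged to a gene whose symbol is not paired with its identifier in the files, and the nearest ones with a symbol were of MLLT1, with 6.09 and 4.99, and of BRAT1, with 9.67 and 11.6. These are matches of 2 numbers each and say nothing of shared function or control.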

How the data were processed

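The members and lists were chosen with earlier results of these data known. RNA of FaDu cells with shNC or shNAT10 was measured by acRIP-seq, with 1 IP and 1 input library per condition and 150-bp paired-end reads per the labels. Each list was assigned to its condition by the prefix it shares with the titles of the libraries.

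The authors had peaks called by a company, IP against input in each condition. The submitters' processing notes name cutadapt 2.5, HISAT2 2.1.0, HOMER 4.10.4 and featureCounts 1.6.3, with no role, and GRCh38, hg38 and GRCm38. The peak caller, its thresholds and the scaling are not given in the sources used here. The lists deposited by the authors give positions, fold enrichment as a linear ratio, a p-value per peak, and log10 p and log10 FDR, which were entered as a score because some fell below the usual range of log10 values. The deposited table of differential peaks also holds the authors' log2 fold change, log10 p-value and FDR between conditions, and these columns were not used. It supplied symbols, region classes and motif sites, whose listed number plus 1 was taken as the first base, since 15 of 17 sites in RefSeq promoter windows matched at that offset and 0 at the others tried.

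Peaks were given to genes by Ensembl identifier, and 13 of 14 mitochondrial identifiers had a symbol in the files, MT-CO3 being named by position. Peaks were paired by largest overlap of exonic blocks on the same strand (at least 1 bp, each the best match of the other), and pairs with an absolute log2 ratio of at least 1 were called 2-fold. Pairing was tested on simulated data. All 7 members were named, with every peak. The result for 1 nuclear gene is not reported here. Nuclear complex I genes were named where 5 or fewer or by the highest and lowest log2 ratios, and similar peaks as the 3 nearest on log2 fold enrichment. With no replicates, p-values between conditions were not computed. Alternatives were a minimum fold enrichment of 4, an FDR of 0.05 or 1e-10, pairing by 50% overlap or without strand, centring of ratios, and means over the peaks of a gene. Scripts ran under Python 3.11.15, with pandas 2.3.3, numpy 2.4.6 and scipy 1.17.1 for the values and matplotlib 3.10.9 for the plots.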

Additional observations from a re-analysis of the deposited data

How the results depend on the processing

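Of 44 recomputed values, 15 moved beyond the tolerance set (0.1 for log2 ratios, 1.5-fold for counts, 10 percentage points for shares), and 4 changed sign, though none was a 2-fold difference as reported. When peaks of a gene were averaged, those were the member median and MT-ND5 as a whole gene (both -0.17). The MT-ND5 value was set against the 0.25 of its first peak, and each paired peak of MT-ND5 taken singly was higher in shNAT10. When centred on the other mitochondrial pairs, they were MT-ND1 (0.00) and MT-ND4 (0.17). The median log2 ratio of the member pairs was 0.07 as reported, 0.15 when centred on all pairs, 0.41 when centred on the other mitochondrial pairs and -0.17 when all peaks of a gene were averaged first, which for MT-ND5 brought in the middle peak of shNAT10. Members with a peak stayed at 6 in each list by position, at either FDR limit and at a log10 p of -100, and fell to 4 in each at a fold enrichment of at least 4, where MT-ND1 and MT-ND2 were lost. Pairing by 50% overlap or without strand left all 7 member pairs. At an FDR of at most 1e-10, nuclear complex I subunits with a peak numbered 24 in place of 32 in shNC and 27 in place of 30 in shNAT10. Among mitochondrial peaks alone, the median share of peaks below a member by fold enrichment was 31.2% in shNC and 30.6% in shNAT10, against 14.2% and 8.66% of the whole lists. By p-value it was 43.8% and 41.7%, against 98.2% and 98.4%. The cause of these moves was not tested. The strongly called nuclear background and the log10 p limit on members were chosen after seeing the data. The repeat of 5 triplets was not run, since it needs the sequence. No paired analysis was possible because neither line has a replicate. The unknown depth and scaling limit every ratio.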
